A study of Mus musculus with 9 samples.

Results

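The Myc network is described here by 9 genes that encode basic helix-loop-helix leucine zipper transcription factors, chosen by symbol: Myc, Mycn, Mycl, Max, Mxd1, Mxd3, Mxd4, Mxi1 and Mnt. They are 9 of the 55385 genes in the deposited table, and each symbol matched 1 row. RNA sequencing had been run on 9 libraries of MCP5, a wild-type mouse line labelled as podocytes, the epithelial cells that wrap the capillaries of the kidney glomerulus. There were 3 groups of 3 libraries each. Controls were labelled blank, and the treated groups received 50 mmol/L glucose (high glucose) or 400 µg/mL of AGEs, the advanced glycation end products that form when sugars react with proteins. All 3 groups share the line and its genotype. The sources used here do not give the length of exposure or the glucose in the control medium, and neither a control for osmolarity nor one for the carrier of the AGEs was analysed here. The titles number the libraries but do not say that they came from separate cultures, so the p-values below measure only the spread between libraries, which may be technical.

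Myc, Mycn and Mycl activate transcription as dimers with Max, which bind the E-box CACGTG and related sites in DNA. Mxd1, Mxi1, Mxd3, Mxd4 and Mnt also dimerise with Max, bind the same sites and recruit corepressors of the Sin3 and histone deacetylase type, so they compete with the Myc proteins for partner and site. The activating arm is best known for driving ribosome production, nucleotide synthesis and cell growth. The Mxd genes other than Mxd3 are known from their expression as cells leave the cycle or differentiate.

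Total counts ranged from 46284878 (high glucose library 2) to 77242281 (high glucose library 1) per library. The first principal component of log2 CPM (counts scaled to library size) held 60.8% of the variance and set the high glucose libraries apart from the other 6. The podocyte label was only partly borne out by its markers: Lmx1b and Cdkn1c had a count of 0 in all 9 libraries, Wt1 and Tcf21 had counts in 1 library each (11 and 4), and Nphs1 had 280 to 7040 counts. Summed FPKM (fragments scaled to transcript length and depth, as deposited) of the 14 podocyte markers was 112 to 131 in control libraries, 153 to 164 with high glucose and 141 to 154 with AGEs. In the same order of groups the sum for 7 parietal epithelial markers was 419 to 442, 820 to 894 and 394 to 461, and for 7 tubular markers 23.5 to 24.2, 81.6 to 86.2 and 22.9 to 27.8, with Slc34a1, Umod and Aqp2 at 0 throughout. For 6 endothelial markers it was 1.007 to 1.129, 2.56 to 3.28 and 0.688 to 0.913. For 6 mesangial and fibroblast markers it was 7.90 to 8.51, 13.7 to 15.4 and 5.87 to 8.55, and for 6 leukocyte markers 27.3 to 30.7, 48.6 to 52.9 and 25.5 to 29.5. Single markers passed the edgeR test described below, in high glucose against control, as higher for 3 of 8 podocyte, 4 of 7 parietal, 3 of 3 tubular, 2 of 3 endothelial, 2 of 6 mesangial and 2 of 6 leukocyte genes tested, with 1 leukocyte gene lower. Over all genes tested, 39.3% were called in this comparison (19.6% higher, 19.7% lower). The shares called of the podocyte (37.5%) and mesangial (33.3%) genes were near that, and those of the other lists, of 3 to 7 genes tested, ran from 50% to 100%. All 6 sums were higher in high glucose than in control alongside the network differences that follow, and their part in those differences was not tested. On the FPKM scale of these sums, high glucose sits 0.18 higher (log2) relative to control than in CPM.

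In control cells the network was led by Myc itself. Levels of different genes are compared here only in FPKM, which is scaled to transcript length. Myc stood at 33.0, 25.6 and 31.2 FPKM in control libraries 1, 2 and 3, and its obligate partner Max at 18.8, 16.7 and 17.02 FPKM. The broadly expressed repressor Mnt came next at 8.64 ± 0.604 FPKM (SD, n = 3), followed by the repressor Mxi1 at 5.54 ± 0.197 FPKM. The remaining Mxd genes lay lower, with Mxd4 at 2.17 ± 0.664, Mxd3 at 1.97 ± 0.243 and Mxd1 at 1.61 ± 0.0253 FPKM. Mycl, the family member first found in lung cancer, was at 1.21 ± 0.350 FPKM, and Mycn, best known from neural tissue and neuroblastoma, was near the detection limit at 0.0491 ± 0.0128 FPKM, or 10 to 16 counts a library. In this order of control levels, Mxd4 and Mxd3 were the only neighbours whose libraries overlapped.

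**Figure D1:**
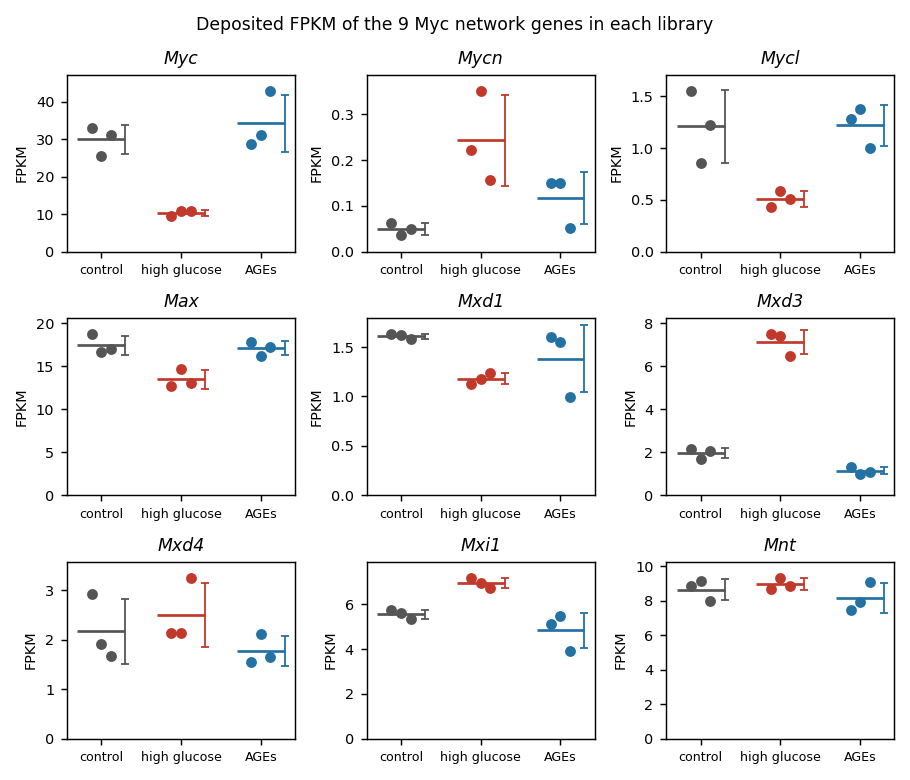
Deposited FPKM (linear axes from 0, a scale per gene) of the 9 Myc network genes, with a point per library, a line at the group mean of 3 and a bar of ± 1 SD. Myc sits between 25.6 and 42.9 FPKM in control and AGEs and between 9.47 and 10.8 FPKM in high glucose, while Mxd3 is highest in the 3 high glucose libraries (6.48 to 7.503 FPKM).

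The first comparison asked which genes differ between high glucose and control cells. RNA of Myc, Mycl, Max and Mxd1 fell in high glucose and that of Mxd3 and Mycn rose, whereas Mxd4, Mxi1 and Mnt did not pass the test. Of the 9 genes, 2 rose and 4 fell by edgeR's quasi-likelihood test at an adjusted p below 0.05, beside 39.3% of the 17680 genes tested (19.6% higher, 19.7% lower). All 9 genes passed the filter on low counts. In bulk RNA, fewer cells that express a gene and less of its RNA per cell cannot be told apart.

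Myc, the main activator, lies on mouse chromosome 15 (GRCm38 chr15:61985391-61990350, plus strand, ENSMUSG00000022346). Its FPKM was 9.47, 10.8 and 10.8 in the high glucose libraries against 33.0, 25.6 and 31.2 in control. All 3 high glucose libraries lay far below all 3 control libraries, and the high glucose libraries differed little among themselves. Normalised counts fell from 94.1 ± 12.8 to 28.9 ± 1.75 CPM, a log2 change of -1.70 (SE 0.17, 95% interval -2.08 to -1.33) or 3.26-fold lower, with an edgeR adjusted p of 5.66e-05. This call held in all 17 alternative fits, with log2 changes from -1.81 to -1.44.

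Mycl (chr4:122995652-123002485, plus strand, ENSMUSG00000028654), the other clearly expressed activator, fell with it. Control libraries measured 1.55, 0.854 and 1.22 FPKM, against 0.430, 0.582 and 0.508 FPKM for high glucose. The groups did not overlap, although control library 2 was nearer to the high glucose libraries than to control library 1. The log2 change was -1.43 (SE 0.24), 2.69-fold lower, with an edgeR adjusted p of 0.00137.

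Mycn (chr12:12936093-12941914, minus strand, ENSMUSG00000037169) went the other way from a very low base. Its counts were 16, 10 and 12 in control libraries against 64, 60 and 42 with high glucose, that is 0.0617, 0.0362 and 0.0494 against 0.223, 0.352 and 0.156 FPKM. Every high glucose library exceeded every control library, but the highest of them was still below the level of any other network gene in any library. The log2 change was 2.04 (SE 0.54, 95% interval 0.82 to 3.26) with an edgeR adjusted p of 0.0145, and the call was lost without control library 2 (log2 change 1.86, adjusted p 0.0515) and without high glucose library 2 (log2 change 1.70, adjusted p 0.0605). Counts of 4 were more frequent in the table than counts of 3 (9186 against 2519 entries), so 1 fragment may have added more than 1 count, and the counting error of Mycn may be larger than its counts show.

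Max (chr12:76937269-76962201, minus strand, ENSMUSG00000059436), the shared partner of the other members, moved less. Control libraries measured 18.8, 16.7 and 17.02 FPKM, and high glucose libraries 12.8, 14.8 and 13.01 FPKM. The groups did not overlap, and the gap between the lowest control and the highest high glucose library was about as wide as the spread within each group. The log2 change was -0.55 (SE 0.09, 95% interval -0.74 to -0.36), 1.46-fold lower, with an edgeR adjusted p of 0.000827 and the same call in all 17 alternative fits. The fall of Max was smaller than that of Myc, with intervals of the log2 change that do not overlap.

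Among the repressors, Mxd3 (chr13:55325168-55329758, minus strand, ENSMUSG00000021485), a gene expressed in S phase in other mouse cells, rose. Its FPKM was 2.14, 1.69 and 2.07 in control libraries and 7.503, 7.42 and 6.48 with high glucose. The lowest high glucose library was above every control and every AGEs library. Normalised counts rose from 5.41 ± 0.702 to 17.3 ± 1.56 CPM, a log2 change of 1.68 (SE 0.16, 95% interval 1.33 to 2.03) or 3.203-fold higher, with an edgeR adjusted p of 4.23e-05 and the same call in all 17 alternative fits. Mxd3 shares 105 bases with Prelid1 on the opposite strand, and Prelid1 had 229427 counts over the 9 libraries against 5359 for Mxd3. Without a stated strand setting, reads from the shared bases cannot be assigned to either gene. The log2 difference of Prelid1 in high glucose against control was -0.10 (SE 0.08, edgeR adjusted p 0.397), and the part of shared reads in the Mxd3 values was not tested.

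Mxd1 (chr6:86647042-86669161, minus strand, ENSMUSG00000001156), the founding repressor of the family, fell instead. It stood at 1.63, 1.62 and 1.58 FPKM in control libraries, against 1.13, 1.18 and 1.24 FPKM with high glucose. The groups were tight and did not overlap. The log2 change was -0.63 (SE 0.17), 1.54-fold lower, with an edgeR adjusted p of 0.0144, and it missed the threshold when FPKM was tested with limma (log2 change -0.26 and adjusted p 0.0838 with a pseudocount of 1, and -0.42 and 0.105 with 0.1). On the FPKM scale the high glucose libraries sit 0.18 higher (log2) relative to control than on the CPM scale, over 10665 genes with at least 200 counts in each library. With limma on log2(FPKM + 1), 5235 genes were higher and 2399 lower in high glucose, against 3466 and 3480 with edgeR.

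Mxi1, Mnt and Mxd4, the other repressors, were not called. Mxi1 (chr19:53310518-53375810, plus strand, ENSMUSG00000025025) measured 5.72, 5.59 and 5.33 FPKM in control libraries, against 7.18, 6.92 and 6.72 FPKM with high glucose. Its groups did not overlap on either scale, but the log2 change in CPM was 0.15 (SE 0.11, 95% interval -0.11 to 0.40) with an edgeR adjusted p of 0.341. Mnt (chr11:74830920-74845725, plus strand, ENSMUSG00000000282) was at 8.85, 9.11 and 7.96 FPKM in control libraries and 8.67, 9.33 and 8.84 FPKM with high glucose, and the groups overlapped. The log2 change was -0.13 (SE 0.10, 95% interval -0.35 to 0.10) by edgeR, with an adjusted p of 0.371. Mxd4 (chr5:34173883-34187710, minus strand, ENSMUSG00000037235) overlapped between the groups, at 2.92, 1.91 and 1.67 FPKM in control libraries, against 2.13, 2.14 and 3.26 FPKM with high glucose. Its edgeR interval of the log2 change, -0.51 to 0.57, leaves room for a moderate difference in either direction.

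**Figure D2:**
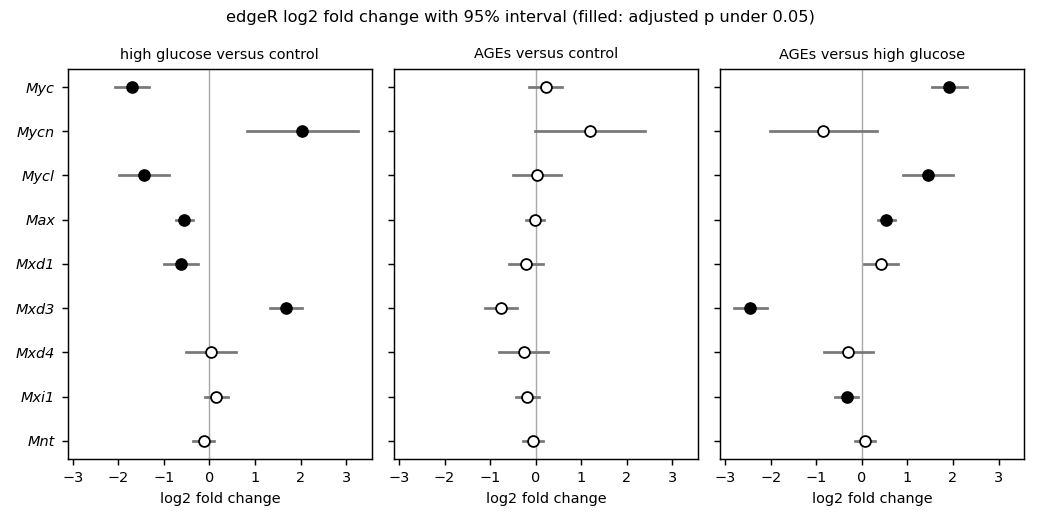
Log2 fold change (edgeR, CPM scale) of the 9 genes with 95% intervals as lines, in a panel per comparison, filled where the adjusted p is below 0.05. In high glucose against control Myc (-1.70) and Mycl (-1.43) lie lowest and Mycn (2.04) and Mxd3 (1.68) highest, while in AGEs against control Mxd3 (-0.76) is the only gene whose interval excludes 0.

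The promoters were read for 2 kinds of motif, the E-box that the network's own dimers bind and the E2F-type site of cell cycle genes, and the 4 windows with a match are printed to show where these letters lie. RefSeq promoter sequences (GRCm38.p6) were matched for 8 of the 9 genes, not for Myc, and only the bases upstream of any annotated exon are shown, 5′ to 3′ on the gene's strand. The motifs were the E-box CACGTG, which reads the same on both strands, and 5 E2F-type words (TTTCCCGC, TTTCGCGC, TTTGCCGC, TTTGGCGC and TTCCCGCC, either strand), chosen after the sequences had been seen. Capitals mark the matches. In the Mycn window (chr12:12941915-12942086, minus strand) 3 E2F-type words were found, of which the pair farthest upstream overlaps. The Mxd3 window (chr13:55329824-55329981, minus strand) held 1 such word, on the opposite strand. The Mxd4 (chr5:34187721-34187960, minus strand) and Mnt (chr11:74830674-74830919, plus strand) windows held 1 E-box each.
Mycn: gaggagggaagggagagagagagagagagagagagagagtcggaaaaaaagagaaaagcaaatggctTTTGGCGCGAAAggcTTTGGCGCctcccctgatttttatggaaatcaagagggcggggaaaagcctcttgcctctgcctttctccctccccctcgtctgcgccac
Mxd3: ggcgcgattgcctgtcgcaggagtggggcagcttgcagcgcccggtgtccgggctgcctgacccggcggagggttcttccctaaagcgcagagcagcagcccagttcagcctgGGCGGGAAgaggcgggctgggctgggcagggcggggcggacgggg
Mxd4: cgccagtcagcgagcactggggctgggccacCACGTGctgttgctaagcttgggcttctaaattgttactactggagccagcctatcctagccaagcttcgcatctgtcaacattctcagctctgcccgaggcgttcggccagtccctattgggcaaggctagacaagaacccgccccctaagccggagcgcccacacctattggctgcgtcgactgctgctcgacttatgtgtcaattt
Mnt: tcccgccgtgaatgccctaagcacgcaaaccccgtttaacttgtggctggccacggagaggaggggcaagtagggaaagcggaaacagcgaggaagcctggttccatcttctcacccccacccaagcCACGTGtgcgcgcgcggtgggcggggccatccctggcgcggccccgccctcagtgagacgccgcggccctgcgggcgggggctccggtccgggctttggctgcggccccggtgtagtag

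The E2F-type words of Mycn ended 176, 172 and 161 bases upstream of the RefSeq start site, and that of Mxd3 ended 130 bases upstream. The E-box ended 214 bases upstream in Mxd4 and 118 in Mnt. Neither motif was found in the upstream windows of Max, Mxd1 or Mxi1, and the Mycl window lay within an annotated exon and was not read. Of 32817 mouse promoters, 1.996% held an E2F-type word in the stretch shown for Mycn and 1.79% in that shown for Mxd3. An E-box was held by 5.69% in the stretch shown for Mxd4 and 5.89% in that shown for Mnt. The E2F-type words were chosen after the sequences had been seen, so their rates cannot show whether these matches are unusual. A match to these letters is not a bound site, and binding was not measured.

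The balance of the network by transcript level differed between high glucose and the other groups. Of the summed FPKM of all 9 genes, the 3 Myc family genes (Myc, Mycn and Mycl) made up 45.3% ± 3.004 (SD, n = 3) in control libraries, 21.6% ± 1.06 with high glucose and 50.5% ± 5.20 with AGEs. The 5 repressor genes (Mxd family and Mnt) made up 29.1% ± 2.20, 52.1% ± 1.67 and 24.9% ± 2.97. The highest repressor share outside high glucose was 31.6% and the lowest within it 50.4%, so the high glucose libraries stood apart without overlap. Max held a near constant share of 25.5% ± 0.809, 26.3% ± 1.12 and 24.6% ± 2.64. These shares are a description of levels, with no test. Each share is of RNA within a library, so a scale factor of that library cancels out.

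The higher share of the repressors came with a lower total and with a higher repressor sum in FPKM. Unlike the shares, these sums keep the scale of each library, and high glucose sits 0.18 higher (log2) on the FPKM scale than in CPM, relative to control. The summed FPKM of the 9 genes was 68.6 ± 5.78 in control libraries, 51.3 ± 2.04 with high glucose and 70.0 ± 7.04 with AGEs. That of the Myc family genes was 31.2 ± 4.22, 11.1 ± 0.882 and 35.6 ± 7.37, and that of the repressors 19.9 ± 1.32, 26.7 ± 0.243 and 17.3 ± 0.679. Mxd3 alone went from 2.86% ± 0.182 of the network in control to 13.9% ± 1.23 in high glucose, and Mxi1 from 8.12% ± 0.648 to 13.5% ± 0.848. Among the repressors only Mxd3 was called higher in CPM by edgeR. Mxi1 (log2 change 0.15, edgeR adjusted p 0.341), Mnt and Mxd4 were not called, and Mxd1 was lower.

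Ratios to Myc within a library showed the same contrast. The Mxd3 to Myc ratio in FPKM was 0.0649, 0.0660 and 0.0663 in control libraries, 0.793, 0.684 and 0.600 with high glucose, and 0.0461, 0.0324 and 0.0252 with AGEs. The 3 control libraries were nearly identical in this ratio, and each AGEs library lay below all of them. The Max to Myc ratio was 0.589 ± 0.0564, 1.30 ± 0.0861 and 0.515 ± 0.109, so Max transcripts exceeded Myc transcripts in FPKM in the high glucose group. The Mnt to Myc ratio was 0.293 ± 0.0551, 0.865 ± 0.0484 and 0.242 ± 0.0259. The Mycl to Myc ratio moved little, at 0.0399 ± 0.00690, 0.0487 ± 0.00436 and 0.0374 ± 0.0122.

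**Figure D3:**
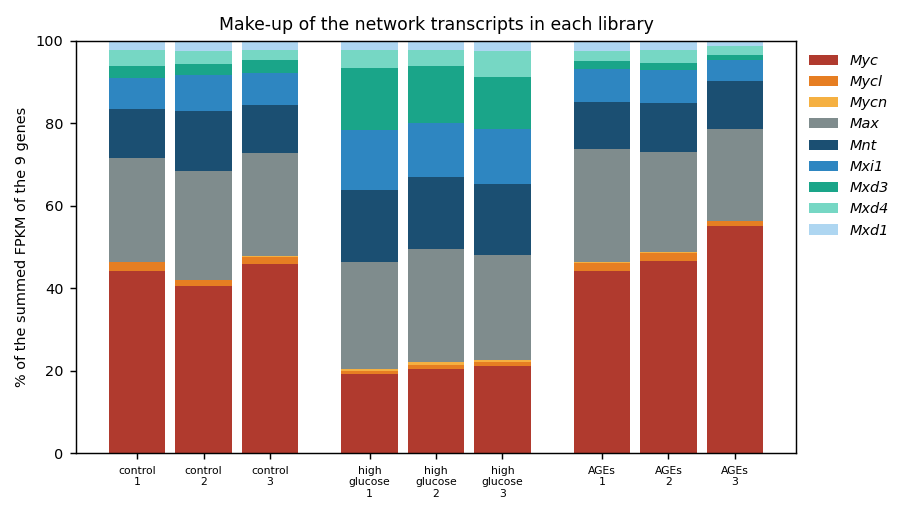
Stacked bars of the share (%) of the summed FPKM of the 9 genes taken by each gene, with a bar for each of the 9 libraries and the Myc family genes at the bottom, Max in grey and the repressors on top. In the high glucose libraries the repressors hold 50.4 to 53.8% and the Myc family genes 20.5 to 22.5%, against 27.3 to 31.6% and 42.0 to 47.7% in control.

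The order of levels changed accordingly. In high glucose Max was highest, followed by Myc, Mnt, Mxd3, Mxi1, Mxd4, Mxd1, Mycl and Mycn, and only Mxd3 and Mxi1 overlapped as neighbours. In AGEs Myc led again, before Max, Mnt and Mxi1. Below them the libraries of neighbours in the order Mxd4, Mxd1, Mycl and Mxd3 overlapped, although all Mxd4 libraries lay above those of Mycl and Mxd3, and Mycn was last.

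The second comparison asked which genes differ between AGEs-treated and control cells. None of the 9 genes was called by edgeR, beside 0.0848% of the genes tested (15 of 17680, with 0.0509% higher and 0.0339% lower), while 2190 genes had an unadjusted p below 0.05. Mxd3 was the nearest to a call. It measured 1.32, 1.010 and 1.08 FPKM in the AGEs libraries against 2.14, 1.69 and 2.07 in control. All 3 AGEs libraries were below all 3 control libraries, which is the opposite direction to high glucose. The log2 change was -0.76 (SE 0.16, 95% interval -1.11 to -0.41), 1.70-fold lower, with an unadjusted p of 0.000758 and an edgeR adjusted p of 0.17. DESeq2 gave the same log2 change with an adjusted p of 0.00454.

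Myc was at 28.7, 31.2 and 42.9 FPKM in AGEs. The first 2 libraries lay within the control range and AGEs library 3 above it. The log2 difference from control was 0.22 (SE 0.16, 95% interval -0.15 to 0.58) with an edgeR adjusted p of 0.616. AGEs library 3 also had the lowest Mxi1 (3.93 FPKM), Mxd1 (0.991 FPKM), Mycl (1.001 FPKM) and Mycn (0.0526 FPKM) of its group, and the other 2 libraries were close to each other in these genes. Mycn had 38, 40 and 15 counts against 10 to 16 in control, a log2 difference of 1.1997 (SE 0.54, 95% interval -0.01 to 2.41) with an edgeR adjusted p of 0.406. Max measured 17.8, 16.3 and 17.3 FPKM, with an interval of the log2 difference from -0.20 to 0.18. That interval is narrow enough to leave out a change of the size seen in high glucose. For the other members the log2 differences were 0.03 for Mycl, -0.20 for Mxd1, -0.26 for Mxd4, -0.18 for Mxi1 and -0.06 for Mnt.

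AGEs and high glucose cells were then compared directly. AGEs cells had more Myc, Mycl and Max RNA and less Mxd3 and Mxi1 RNA than high glucose cells, 3 genes higher and 2 lower by edgeR, beside 39.9% of all genes (19.7% higher, 20.2% lower). Myc was 3.79-fold higher (log2 difference 1.92, SE 0.17, edgeR adjusted p 2.83e-05). Mycl was 2.75-fold higher (adjusted p 0.0012 in the same test) and Max 1.45-fold higher (0.000884). Mxd3 was 5.44-fold lower (log2 difference -2.44, SE 0.16, 95% interval -2.81 to -2.08, edgeR adjusted p 5.74e-06), its widest gap between any 2 groups. Mxi1 lay at 5.10, 5.45 and 3.93 FPKM in AGEs, below all 3 high glucose libraries. Its log2 difference was -0.33 (SE 0.11) with an edgeR adjusted p of 0.0432, and this call was lost in 10 of 17 alternative fits, with adjusted p from 0.0581 to 0.134. Mxd1 missed the threshold (log2 difference 0.42, SE 0.17, edgeR adjusted p 0.071) and passed it without AGEs library 3 (0.60, adjusted p 0.00227). Mycn (-0.84), Mxd4 (-0.29) and Mnt (0.07) were not called.

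The related factors that dimerise with Mlx or Max outside this set were at most near the threshold. Mlx, a Max-like partner, measured 46.3 ± 3.12 CPM in control libraries against 36.6 ± 5.72 CPM with high glucose (log2 difference -0.34, SE 0.12, edgeR adjusted p 0.0526). Mlxipl, the glucose-sensing factor ChREBP, was at 0.130 ± 0.115 and 0.785 ± 0.199 CPM (log2 difference 2.57, SE 0.92, edgeR adjusted p 0.052), and it was called in 4 of 17 alternative fits. Mlxip (MondoA) and Mga, a repressor that pairs with Max, had log2 differences of -0.16 and 0.05. None of these 4 was called in any of the 3 comparisons.

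Pvt1, the long noncoding RNA gene next to Myc (chr15:62037986-62378096, plus strand), begins 47635 bases beyond the end of Myc. It was at 1.37, 1.19 and 0.927 FPKM in control libraries, 0.816, 0.707 and 0.524 FPKM with high glucose, and 1.27, 1.74 and 1.42 FPKM with AGEs. The high glucose libraries were the lowest 3 of the 9. Its log2 change in high glucose was -0.93 (SE 0.21) with an edgeR adjusted p of 0.00697, in the same direction as Myc and smaller in size. In AGEs against control the log2 difference was 0.36 with an adjusted p of 0.517 in the same test.

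Genes that Myc is known to activate for growth were mostly lower in high glucose. The 56 growth targets listed include ribosome assembly, chaperone, nucleotide and cell cycle genes, among others. Of them, 42 fell and 1 rose, beside 19.7% lower and 19.6% higher over all genes tested. Their median log2 difference was -0.83, beside 0.03 for all genes. This and the other lists were chosen with earlier results of these data known, so the contrasts with all genes are descriptions only. The share over all genes also depends on their level: with a mean CPM of at least 1, 3317 of 13239 genes were lower and 3476 higher. Npm1, a nucleolar chaperone, fell from 1425 ± 82.0 to 487 ± 18.6 CPM (log2 change -1.55, SE 0.08, edgeR adjusted p 2.13e-06). Hspd1, the mitochondrial chaperonin, fell from 1114 ± 61.0 to 406 ± 10.1 CPM, and Gnl3 (nucleostemin) from 202 ± 18.5 to 74.6 ± 1.61 CPM. Pus1, which modifies transfer RNA, and Ipo4, a nuclear import receptor, fell by 1.29 and 1.11 on the log2 scale. The 1 that rose was Plk1, a mitotic kinase, from 44.2 ± 1.08 to 170 ± 11.6 CPM (edgeR adjusted p 3.62e-05), and it was picked out after its value was seen. The count of growth targets that fell stayed between 38 and 42 over all alternative fits.

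Of 20 long-established single targets, 11 fell and 2 rose, beside 19.7% lower and 19.6% higher over all genes, with a median log2 difference of -0.29 beside 0.03. Shmt2 and Shmt1, which feed the one-carbon pool from serine, fell by 1.85 and 1.60 on the log2 scale (edgeR adjusted p 7.72e-07 and 8.92e-07). Cad, which starts pyrimidine synthesis, fell from 328 ± 11.7 to 138 ± 6.40 CPM, and Ncl (nucleolin) from 1990 ± 233 to 736 ± 46.6 CPM. Id2, an inhibitor of helix-loop-helix factors, rose from 37.6 ± 1.67 to 117 ± 28.3 CPM (log2 change 1.64, SE 0.19, edgeR adjusted p 0.000133). The other that rose was Tert, the catalytic subunit of telomerase, from 1.06 ± 0.0672 to 4.17 ± 0.162 CPM.

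Genes that Myc is known to repress split in both directions. Of 9, 4 rose and 4 fell in high glucose, beside 19.6% and 19.7% of all genes, with a median log2 difference of 0.92 beside 0.03. Cdkn2b, a cyclin-dependent kinase inhibitor, rose from 17.6 ± 2.73 to 33.3 ± 2.16 CPM, and Ndrg2 from 26.4 ± 2.82 to 54.9 ± 5.47 CPM. Ddit3 (CHOP), a stress-induced factor, fell from 1672 ± 18.7 to 47.3 ± 3.96 CPM (log2 change -5.14, SE 0.11, edgeR adjusted p 2.91e-08). Ndrg1 and Gadd45a, both stress-responsive, fell by 2.04 each on the log2 scale.

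**Figure D4:**
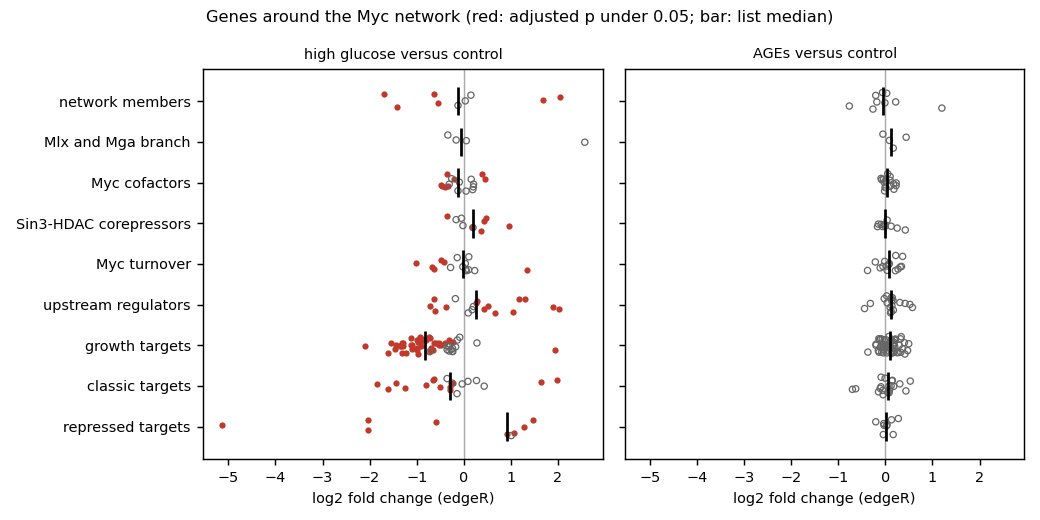
Log2 fold change (edgeR) of each tested gene of the network and of 8 lists around it, for high glucose and for AGEs against control, with a point per gene (red where the adjusted p is below 0.05, vertical position within a row without meaning) and a bar at the list's median. The growth targets centre on -0.83 in high glucose and on 0.09 in AGEs.

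Of 10 corepressors of the kind that the Mxd proteins and Mnt recruit, 5 rose, 1 fell and 4 were not called in high glucose, beside 19.6% higher and 19.7% lower over all genes. Their median log2 difference was 0.18, beside 0.03. Hdac1, a histone deacetylase, rose from 174 ± 6.67 to 336 ± 7.13 CPM (1.93-fold, edgeR adjusted p 4.47e-05). Sin3a, a scaffold of the complex, rose from 59.5 ± 3.55 to 79.8 ± 1.93 CPM, while its paralogue Sin3b fell from 164 ± 13.2 to 127 ± 6.22 CPM. Hdac2 and Ncor1 rose by log2 changes of 0.36 and 0.48. Of 17 Myc coactivators, 6 fell, 2 rose and 9 were not called, with a median log2 difference of -0.13, and the 8 calls are a share near the 39.3% of all genes. With limma on FPKM 4 were lower and 6 higher, so the list has no stable direction. The helicases Ruvbl1 (log2 change -0.49, SE 0.07, edgeR adjusted p 0.00034) and Ruvbl2 (-0.47), the histone methylation subunit Wdr5 (-0.35) and the elongation factor Supt5 (-0.41) were among those that fell. The acetyltransferase Ep300 rose from 69.0 ± 4.95 to 94.6 ± 12.7 CPM.

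Of 15 genes that control the stability of the Myc proteins, which were not measured themselves, 5 fell, 1 rose and 9 were not called. The 6 calls are a share near the 39.3% of all genes, and the median log2 difference was -0.02. Usp36, a nucleolar deubiquitinase that stabilises MYC in human cells, fell from 81.9 ± 2.97 to 40.5 ± 1.81 CPM (edgeR adjusted p 6.3e-05). Aurka, a mitotic kinase that stabilises N-Myc in human cells, rose from 49.3 ± 5.48 to 124 ± 8.71 CPM (adjusted p 0.000128 in the same test). The ubiquitin ligase Huwe1 fell by 0.67 and the deubiquitinase Usp37 by 0.64 on the log2 scale. Fbxw7 and Skp2, the best known ligases for Myc, were not called, with log2 differences of 0.10 and -0.02.

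Of 18 known regulators of Myc transcription, 10 rose and 4 fell, beside 19.6% higher and 19.7% lower over all genes, with a median log2 difference of 0.27 beside 0.03. Smad3, a TGF-beta effector that takes part in Myc repression, rose from 33.0 ± 3.39 to 122 ± 3.70 CPM (log2 change 1.89, SE 0.17, edgeR adjusted p 3.07e-05). The Wnt effectors Tcf7 and Tcf7l2 rose by log2 changes of 1.16 and 1.30, and the receptor Notch1 by 1.05, all 3 being known as activators of Myc. Rbpj, on the same list and named after its value was seen, went the other way (log2 change -0.62, edgeR adjusted p 0.00188). Fubp1, which binds the far upstream element of Myc, fell from 89.8 ± 8.59 to 54.3 ± 3.10 CPM. E2f1, named after its value was seen because E2F-type words are shown above, fell from 94.1 ± 7.75 to 61.7 ± 1.76 CPM (edgeR adjusted p 0.00545).

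In AGEs against control, no gene of these 8 lists was called by edgeR, and 3 were by DESeq2 (1 each among the regulators, the growth targets and the established targets). The median log2 difference of the growth targets was 0.09, beside -0.0047 for all genes tested. Between AGEs and high glucose, 47 of the 56 growth targets were higher in AGEs and 1 lower, with a median log2 difference of 0.83 beside -0.02 for all genes. Of the established targets 12 were higher and 2 lower, beside 19.7% higher and 20.2% lower over all genes tested in that comparison. Of the 10 corepressors 3 were lower and 0 higher, and their share called, 30%, was below the 39.9% of all genes. The summed FPKM of the growth targets was 3217 ± 20.1 in control libraries, 1961 ± 26.2 with high glucose and 3365 ± 19.0 with AGEs.

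The genes whose profile over the 9 libraries lay closest to each member were found by the Euclidean distance between centred log2(CPM + 1) values, among about 10047 well expressed genes. The profile of Myc was closest to those of Gdnf (a neurotrophic factor, distance 0.467), Aldh18a1 (proline synthesis, 0.479), Hspa5 (the chaperone BiP, 0.481), Wars (a tryptophanyl-tRNA synthetase, 0.485) and Hmox1 (heme oxygenase, 0.486), where the median distance over all genes was 2.60. Gdnf, for example, was at 23.2, 5.43 and 25.0 CPM on average in control, high glucose and AGEs. The profile of Mxd3 was closest to those of Hcn2, a pacemaker channel (0.467), and Oaf (0.484), with a median distance of 2.80. Hcn2 averaged 3.67, 14.4 and 2.28 CPM in the 3 groups.

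For the remaining members the nearest profiles were Gne (0.367) and Btg3 (0.392) for Mycl, Zmynd19 (0.157) and Mettl3 (0.180) for Max, and Tmem18 (0.145) and Nipa1 (0.225) for Mxd1. They were Wdr53 (0.132) and Elmod3 (0.152) for Mxi1, Ralb (0.160) and Meis2 (0.205) for Mnt, and Tpm2 (0.323) and Tm9sf1 (0.367) for Mycn. Mxd4 had no close match, its nearest being Dcp1b (0.592) and Pdcd4 (0.595) against a median distance of 1.14. The distances of Max, Mxd1, Mxi1, Mnt and Mycn are small partly by construction, since members with little spread or few counts lie close to any flat profile, as the median distances of 0.993, 1.06, 0.917, 0.794 and 1.14 show.

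**Figure D5:**
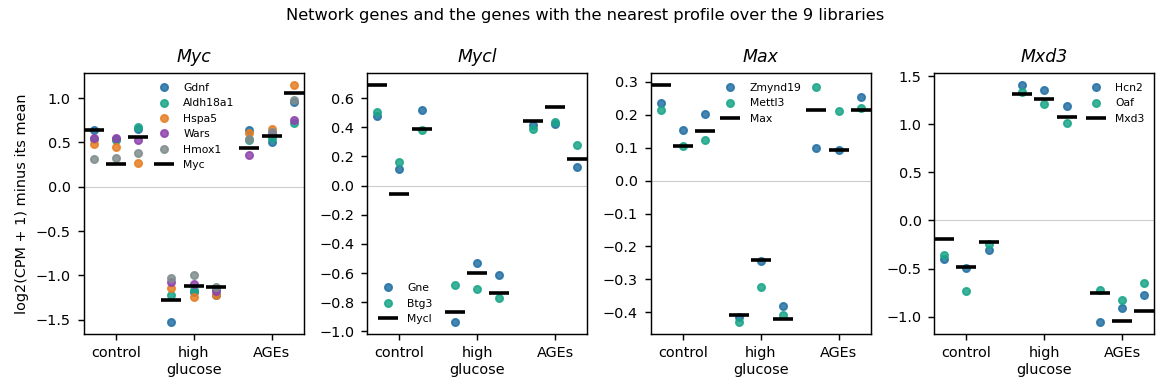
Log2(CPM + 1) minus the gene's mean over the 9 libraries, for Myc, Mycl, Max and Mxd3 (black dashes) and the genes nearest to each in profile (points), with a mark per library and a scale per panel. Myc and its 5 nearest genes lie lowest in the 3 high glucose libraries, and Mxd3 with Hcn2 and Oaf highest there.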

How the data were processed

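Per the file headers, the table that the authors deposited holds, for each of 9 libraries, whole-number counts and FPKM by gene. The submitters' processing notes name cutadapt 1.9, FastQC and the build GRCm38. For aligner, counter, annotation release and strandedness, nothing is given in the sources used here. An FPKM of 0.0001 stood for a count of 0.

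The 9 genes and all gene lists were chosen with earlier results of these data known. Counts of all genes were filtered with filterByExpr (17680 of 55385 genes kept), scaled by TMM (factors 0.935 to 1.10) and tested with edgeR 4.0.16 (R 4.3.3) quasi-likelihood tests, two-sided, with the 9 libraries in 1 fit and no covariate. The adjusted p is Benjamini-Hochberg over all genes tested, called below 0.05. The standard error is the log2 change divided by the root of F. Alternatives used DESeq2 1.42.0 and limma 3.58.1, among 17 fits. The script was tested on simulated counts. The precision of each value rests on 3 libraries a group and on total counts of 46284878 to 77242281. No library pair of a group differed by less than counting noise (chi-square per degree of freedom 47.9 to 110), so none was treated as deposited again. This does not show that they are separate cultures.

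All 9 genes, the 4 Mlx and Mga genes, Pvt1, up to 5 called genes a list by smallest p in high glucose (3 in AGEs), the nearest profiles (5 for Myc, 2 for the others, mean CPM of at least 5) and overlapping genes are named. Coordinates are those deposited, and gene models were compared with GENCODE M21. Some of the listed genes are not reported here by name.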

Additional observations from a re-analysis of the deposited data

How the results depend on the processing

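Across 17 alternative fits the calls of Myc, Mycl, Max and Mxd3 in high glucose against control held. The number of the 9 genes called higher there fell from 2 to 1 with a mean CPM of at least 1, which left Mycn untested, and was 1 to 2 with a library left out. In AGEs against control DESeq2 called 268 genes in place of 15, with 1 of the 9 (Mxd3) lower in place of 0, and leaving out a library gave 10 to 21. In AGEs against high glucose the number called lower fell from 2 to 1 with no filter and with only the 2 groups fitted, and was 1 to 2 with a library left out. The causes were not tested. Same-numbered libraries did not visibly deviate together (r from -0.15 to 0.08 over 9 pairs, against -0.14 to 0.15 over 18 differently numbered pairs). With 3 libraries a group this check cannot show whether the numbers pair the samples. With the replicate number as a block 6322, 5 and 6390 genes were called in the 3 comparisons, against 6946, 15 and 7053.

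None of the values that changed sign was called. On FPKM with limma, Mnt in high glucose against control became 0.047 and 0.051 with pseudocounts of 1 and 0.1, and in AGEs against high glucose -0.12 and -0.14. With a library left out the log2 difference in high glucose against control ran from -0.19 to 0.31 for Mxd4. In AGEs against control it ran from -0.17 to 0.25 for Mycl, from -0.044 to 0.048 for Max, from -0.42 to 0.016 for Mxd4 and from -0.16 to 0.010 for Mnt, and in AGEs against high glucose from -0.033 to 0.14 for Mnt. The share of calls that were higher was 68.6% with limma on log2(FPKM + 1) against 49.9% in high glucose against control, and 29.6% against 49.4% in AGEs against high glucose. In high glucose against control the limma fits counted 6 coactivators higher in place of 2, 0 corepressors lower in place of 1, and 3 stability genes higher and 3 lower in place of 1 and 5. With 1 library left out (control 1 or 3, or high glucose 1 or 2), 1 coactivator was higher, and without control library 2, 2 corepressors were lower. Depth limits mainly Mycn, with 10 to 64 counts a library.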
